A study of Mus musculus with 20 samples.

Results

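The sinoatrial node (SA) was compared with ventricular muscle (V) in 11 arrays, the 4 arrays labelled sinoatrial node against 3 of the left ventricle (LV) and 4 of the right ventricle (RV). These arrays came from a series of 20 Illumina MouseRef-8 v2 bead arrays that also held 4 arrays each of both atria, right (RA) and left (LA). LV replicate 4 was left out of the comparison because it correlated negatively with all other arrays. All animals were male C57/BL6 mice aged 5 to 10 weeks with no treatment or genetic change given. RNA of several mice was pooled for each SA sample, the SA was dissected apart from the other regions, and each LV mass was cut into 3 pieces. The labels do not tell whether the arrays of a region stand for separate animals. The p-values therefore reflect only how far these samples spread, which may be technical. The titles of LV and RV arrays share numbers, and whether these mark the same mouse is not stated. The main fit did not pair them. The title of RV replicate 2 names the right atrium while its source, tissue and description labels name the right ventricle, and it was kept as RV. The difference is SA minus the mean of the LV and RV means, and where a gene had several probes, that of the highest mean in the comparison was read. Soft tissue with the vagus nerve and fat was trimmed off before the regions were isolated.

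The sinoatrial node is a small strip of muscle where the superior vena cava meets the right atrium, in which the heartbeat starts. Its pacemaker cells depolarise by themselves, through hyperpolarisation-activated channels, T-type and L-type calcium channels and calcium release from internal stores, and they are embedded in connective tissue with many nerve endings. Transcription factors such as Isl1, Shox2, Tbx3 and Tbx18 are known to set up this identity and to hold back the programme of working muscle. Ventricular muscle, in contrast, is packed with sarcomeres and mitochondria, burns mainly fatty acids, and conducts quickly through gap junctions of Gja1.

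Values were z-scores within each array, scaled so that the probes of an array have mean 0 and standard deviation 1. A z-score has no true zero, so differences are given in z-score units and never as folds, and levels of different probes are not set against each other. Spearman correlations over all probes lay between 0.95 and 0.96 among the SA arrays. LV replicate 3 stood apart from the other ventricle arrays, with 339 probes below -1.07, the lowest value on any other array. Its correlations with arrays other than LV replicate 4 were 0.85 to 0.88, beside 0.95 between LV replicates 1 and 2. Of the genes tested, 139 were read from such a probe. Tbx3, Scn4b and Gpx3, which are among them, are also given without this array. Counts of genes and lists include it unless said otherwise. The highest z-score on an array was 3.79 to 4.62 in SA and 4.51 to 5.15 in the ventricles, lowest in SA replicate 1. For several lists of abundant transcripts, counts after quantile normalization, which gives every array the same range, are therefore given as well.

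Of 16593 genes on the array, 7409 had a z-score above 0 in at least 1 of the 11 arrays and were tested with limma. In SA, 2304 genes (31.1%) were higher and 1690 (22.8%) lower than in the ventricles at a Benjamini-Hochberg adjusted p of 0.05, so that 53.9% of all genes tested passed. With arrays centred on the median and scaled by the median absolute deviation, the split turned to 1012 higher and 2715 lower, and the median of all genes moved from 0.04 to -0.35. With LV replicate 4 kept in the fit, 422 genes passed. Most differences were small, with a median size of 0.18, and 1478 of the genes that passed differed by less than 0.25. A difference above 1 is therefore used to single out large changes, a limit chosen after the values were seen. It was reached by 144 genes that were higher (1.94%) and 33 that were lower (0.445%). Without LV replicate 3, 2279 genes were higher and 1695 lower, 139 and 34 of them by more than 1. All SA values lay above all 7 ventricle values for 1574 genes (21.2%) and below them for 1002 (13.5%). Against LV alone, 2065 genes (27.9%) were higher and 1491 (20.1%) lower, and against RV alone 2021 (27.3%) and 1462 (19.7%). Passing the minimum through arrays of a single side favours a call in its direction, since 521 of the 644 genes that passed through SA arrays alone were called higher and 188 of the 333 that passed through ventricle arrays alone were called lower. Counts of lists with such members are therefore in part set by the minimum. Counts of lists past the minimum stand beside 31.1% higher and 22.8% lower over all genes tested. Counts of lists without a minimum stand beside 2684 higher and 2308 lower of all 16593 genes, with a median of -0.03.

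The clearest loss in SA was that of the ventricular muscle genes. Of 11 such genes on the array, 9 passed the minimum and all 9 were lower in SA, with a median difference of -1.22 beside 0.04 over all genes. Of these 9, 5 passed through ventricle arrays alone, and without a minimum 11 of 11 were lower with a median of -0.97. Myl2, the regulatory light chain of ventricular myosin, read 0.71, 0.74, 0.54 and 0.55 in the SA arrays, against 4.47, 4.47 and 5.15 in LV and 4.34, 4.34, 4.60 and 4.39 in RV. The 2 sides were far apart, and the difference of -3.92 ± 0.12 (SE) was the largest fall of all genes tested (adjusted p = 8.09e-10). Myl3, the essential light chain of ventricular and slow muscle, had 1.99, 2.15, 2.16 and 1.97 in SA, 4.45, 4.36 and 4.71 in LV, and 4.32, 4.28, 4.62 and 4.27 in RV. Its difference was -2.37 ± 0.09 (SE, adjusted p = 2.15e-09). After quantile normalization the differences were -3.80 for Myl2 and -2.20 for Myl3, both past the threshold. In neither gene did any SA array come near a ventricle array.

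Several members of the ventricular list belong to the Iroquois family of homeobox factors, which pattern the ventricles and set the gradient of the transient outward current. Irx3, needed for fast conduction in the ventricular conduction system, had -0.23, 0.00, -0.31 and -0.32 in SA, against 2.08 to 2.50 in LV and 2.12 to 2.71 in RV. It fell by 2.52 ± 0.11 (SE). Irx5 differed by -1.52 ± 0.10, Irx4 by -1.22 ± 0.07 and Irx2 by -0.72 ± 0.12. Irx1 and Hey2, a repressor of atrial genes in ventricular muscle, were below 0 in all 11 arrays and were not tested. Fhl2, a LIM protein of the sarcomere, differed by -0.97 ± 0.07 and Pln, the brake of the calcium pump of the sarcoplasmic reticulum, by -0.78 ± 0.12. Myh7, the slow myosin heavy chain, differed by -0.60 ± 0.09. In each of the 9 genes tested all SA arrays lay below all ventricle arrays.

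**Figure D1:**
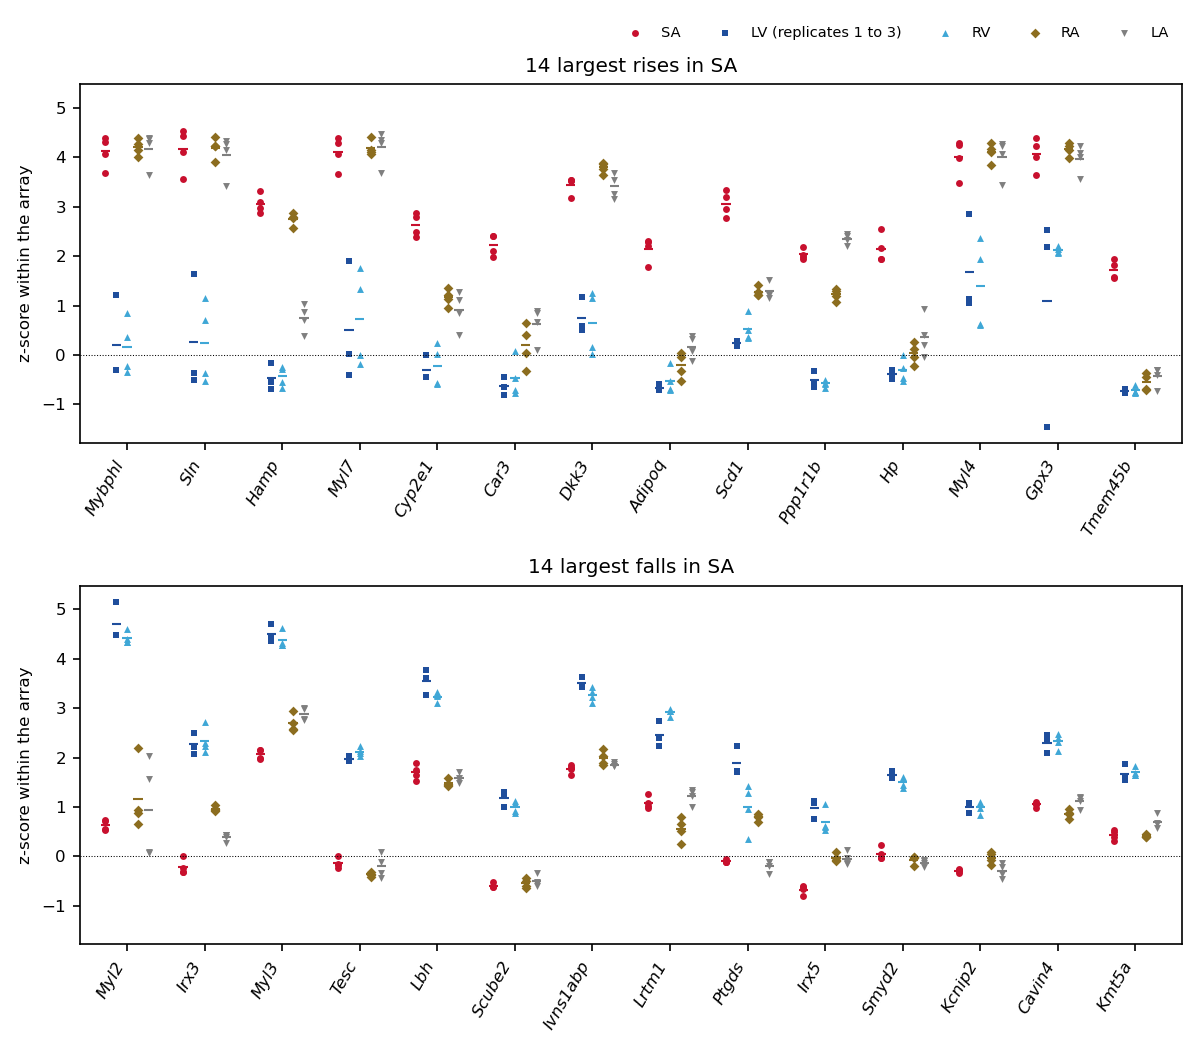
Z-scores within each array of the 14 genes with the largest rise in SA against the ventricles and the 14 with the largest fall, with 1 point per array and a line at each region's mean. SA points lie above (upper panel) or below (lower panel) every LV and RV point, while RA and LA points lie near SA for the muscle genes (Mybphl, Sln, Myl7, Myl4) and far below it for Adipoq, Car3 and Tmem45b.

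Other large falls were of genes with varied roles. Tesc, a calcium-binding regulator of sodium-proton exchange, had -0.23 to 0.01 in SA and 1.94 to 2.23 in the ventricles, a difference of -2.19 ± 0.06 (SE, adjusted p = 1.86e-10). Lbh, a transcription cofactor of the developing heart, differed by -1.69 ± 0.10, Scube2, a secreted protein that releases hedgehog ligands, by -1.68 ± 0.07 and Ivns1abp by -1.63 ± 0.07. Smyd2, a lysine methyltransferase, differed by -1.52 ± 0.06 and Kmt5a, which methylates histone H4, by -1.25 ± 0.07. Cavin4, the muscle-restricted protein of caveolae, differed by -1.26 ± 0.08. Ptgds, which makes prostaglandin D2, was below every ventricle value in SA (-0.11, -0.11, -0.11 and -0.05) but spread from 0.35 to 2.24 among the ventricle arrays.

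The largest rises in SA were those of genes of atrial muscle. All 10 of the atrial muscle genes that passed the minimum, of 11 on the array, were higher in SA, with a median difference of 2.34. Bmp10 lay below 0 in every array of the comparison. Mybphl, a myosin binding protein of atrial muscle, had 3.69, 4.32, 4.40 and 4.07 in SA, against 1.21, -0.31 and -0.31 in LV and -0.23, 0.84, 0.37 and -0.35 in RV, a difference of 3.94 ± 0.31 (SE, adjusted p = 1.18e-06). Sln, sarcolipin, which inhibits the calcium pump of the sarcoplasmic reticulum in atria as phospholamban does in ventricles, had 3.57, 4.44, 4.53 and 4.10 in SA, 1.63, -0.37 and -0.50 in LV, and -0.37, 1.16, 0.70 and -0.53 in RV. It rose by 3.91 ± 0.43 (SE, adjusted p = 1.78e-05). Myl7, the atrial regulatory light chain and counterpart of Myl2, had 3.67, 4.40, 4.29 and 4.06 in SA, 1.91, 0.03 and -0.40 in LV, and -0.01, 1.76, 1.34 and -0.19 in RV, a difference of 3.49 ± 0.46 (SE, adjusted p = 7.16e-05). No SA value of these genes was close to a ventricle value, but the ventricle values were themselves widely spread.

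That spread followed the arrays. The 3 ventricle arrays LV replicate 1 and RV replicates 2 and 3 were the highest of the 7 in Mybphl, Sln, Myl7 and Myl4, the atrial essential light chain, which had 2.86, 2.37 and 1.95 in them and 0.60 to 1.13 in the other 4. The mean of all 11 atrial muscle genes was 1.25, 1.15 and 0.93 in these arrays, 0.39 to 0.49 in the other ventricle arrays and 2.42 to 2.83 in SA. The mean of the 11 ventricular muscle genes showed no such split, with 1.67 to 1.91 over all ventricle arrays. Without the 3 arrays, a choice made after seeing the data, the difference was 4.25 for Myl7, 4.60 for Sln and 3.15 for Myl4, and the atrial list again had 10 of 10 genes higher with a median of 2.70. Where the atrial transcripts in these arrays came from was not tested. In whole tissue, fewer cells of a type and less RNA per cell cannot be told apart.

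Further atrial genes varied less between ventricle arrays. Stard10, a lipid transfer protein, had 3.10 to 3.61 in SA and 0.87 to 1.49 in the ventricles and rose by 2.21 ± 0.09 (SE). Dkk3, a secreted protein of the Dickkopf family, rose by 2.74 ± 0.24. Nr2f1, a nuclear receptor of the COUP-TF family, rose by 1.40 ± 0.08, and Nr2f2, the member of this family known to specify atrial identity, by 0.38 ± 0.05. Nppa, the precursor of atrial natriuretic peptide, was high on every array, with 3.54, 4.47, 4.55 and 4.16 in SA and 3.12 to 3.88 in the ventricles. The 2 ranges overlapped through SA replicate 1, and the rise of 0.73 ± 0.18 (adjusted p = 0.00464) did not pass against LV alone (0.54, adjusted p = 0.056).

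**Figure D2:**
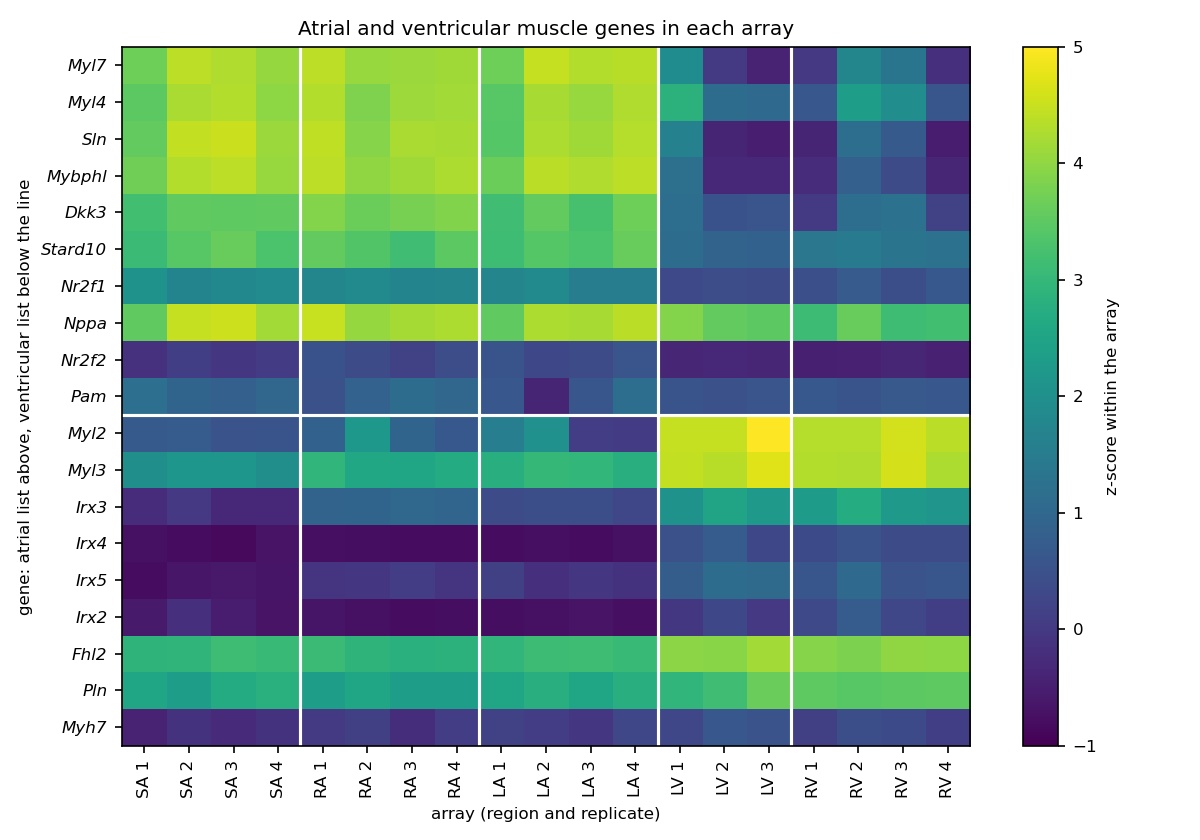
Z-scores of 10 atrial muscle genes (above the line) and 9 ventricular muscle genes (below it) in each of 19 arrays, without LV replicate 4, with colour from -1 to 5. In LV replicate 1 and RV replicates 2 and 3 the upper rows, such as Myl7 at 1.91, 1.76 and 1.34, are brighter than in the other ventricle arrays.

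The differences of the same genes from the atria were small. In a fit over 19 arrays that share the same SA arrays, the differences of SA from RA and from LA were -0.09 and -0.06 for Mybphl, -0.04 and 0.12 for Sln, -0.07 and -0.10 for Myl7, and -0.10 and 0.00 for Myl4, and none of these passed the threshold. Over all genes tested, 696 (9.39%) were higher and 614 (8.29%) lower in SA than in RA, and 834 (11.3%) and 650 (8.77%) than in LA. The minimum was set on SA and ventricle arrays, so genes above 0 only in the atria are not counted. For Myl2 the difference was -0.53 from RA (adjusted p = 0.37) and -0.30 from LA (adjusted p = 0.63). Irx3 and Myl3 were lower in SA than in RA, with differences of -1.18 and -0.62 (adjusted p = 2.7e-07 and 0.0002). The difference from LA was -0.60 for Irx3 and -0.81 for Myl3, both past the threshold.

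Promoters are shown for Myl7 and Myl3, an atrial and a ventricular light chain that moved in opposite directions and whose promoters both matched the CArG box, the element bound by serum response factor. The sequences are those of RefSeq on GRCm38.p6, from 250 bases before to 50 after the start of the gene, and 6024 of the genes tested had an entry. Capitals mark each match to a motif on either strand. The TATA motif was TATAAA. The GATA motif was AGATAA, with A or T allowed as its first base and A or G as its last. The NKX2-5 motif was AAGTGG with G or T as its last base, and the CArG and MEF2 motifs are given by name. A gene with several entries counted as a match if any of them held the motif. A T-box motif, AGGTGTGA, was found in 0.946% of all genes tested with an entry. The motif of estrogen-related receptors, TCAAGGTCA, was found in 0.349%. Matches of different motifs may overlap.
Myl7 (chr11:5898733-5899032, minus strand): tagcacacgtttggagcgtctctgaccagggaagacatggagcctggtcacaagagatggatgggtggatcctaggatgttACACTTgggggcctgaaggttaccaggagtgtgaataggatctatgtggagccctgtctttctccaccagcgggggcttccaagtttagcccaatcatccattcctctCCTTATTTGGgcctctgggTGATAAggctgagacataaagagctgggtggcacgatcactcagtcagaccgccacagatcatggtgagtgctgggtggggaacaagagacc
Myl3 (chr9:110763428-110763727, plus strand): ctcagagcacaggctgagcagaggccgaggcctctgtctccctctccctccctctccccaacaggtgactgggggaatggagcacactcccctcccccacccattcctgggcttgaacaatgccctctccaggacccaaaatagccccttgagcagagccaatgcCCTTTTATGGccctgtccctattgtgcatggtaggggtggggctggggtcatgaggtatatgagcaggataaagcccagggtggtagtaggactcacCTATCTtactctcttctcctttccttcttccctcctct
The CArG box began at base 190 in Myl7 and at base 166 in Myl3. A CArG box was found for 101 of the 6024 genes (1.68%), for 3 of the 107 higher in SA by more than 1 (2.8%), and for 2 of the 29 lower by more than 1 (6.9%). The GATA words were found for 22.5% of all these genes, 29.0% of the higher and 37.9% of the lower ones. A match describes letters and does not show binding.

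All 4 of the listed factors that passed the minimum, of 6 on the array, were higher in SA, with a median difference of 1.54. Of these 4, 3 passed through SA arrays alone, and without a minimum 6 of 6 were higher with a median of 1.12. With the minimum but without LV replicate 3, the median of the 4 was 1.36. Isl1, the LIM homeobox factor that marks cardiac progenitors and the pacemaker lineage, had 1.38, 1.08, 1.09 and 0.83 in SA, -0.73, -0.69 and -0.65 in LV, and -0.67, -0.75, -0.76 and -0.75 in RV. It rose by 1.81 ± 0.08 (SE, adjusted p = 1.07e-08). Shox2, a homeobox factor that holds back Nkx2-5 in the developing node, had 1.22, 1.39, 1.40 and 1.42 in SA, -0.46, -0.43 and -0.36 in LV, and -0.29, -0.38, -0.55 and -0.45 in RV, a rise of 1.77 ± 0.06 (SE, adjusted p = 1.05e-09). Both genes lay below the array mean in all 7 ventricle arrays and above it in all 4 SA arrays.

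Tbx3, the T-box repressor of the working muscle programme, had 1.70, 1.60, 1.81 and 1.65 in SA and 0.74, 0.64, 0.85 and 0.85 in RV. In LV it had 0.84, 0.65 and, on replicate 3, -1.50. Without LV replicate 3 the rise was 0.93 (adjusted p = 2.67e-07) in place of 1.31 ± 0.34 (SE, adjusted p = 0.00742). Tbx5, a T-box activator of atria and node, rose by 0.93 ± 0.08 (SE). Tbx18, a factor of the node's head region, was higher in all SA arrays (-0.37 to -0.08) than in any ventricle array (-0.64 to -0.42), but with all values below 0 it was not tested, and Hoxa2 was likewise below 0 throughout. Beside the atria, Isl1 was higher in SA than in RA by 1.54 and than in LA by 1.91, and Shox2 by 0.83 and 1.68, all past the threshold. Tbx5 did not pass against either atrium (differences of -0.20 and 0.03).

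Promoters of Isl1 and Shox2 are shown because both factors were higher in SA than in each of the other regions.
Isl1 (chr13:116309639-116309938, minus strand): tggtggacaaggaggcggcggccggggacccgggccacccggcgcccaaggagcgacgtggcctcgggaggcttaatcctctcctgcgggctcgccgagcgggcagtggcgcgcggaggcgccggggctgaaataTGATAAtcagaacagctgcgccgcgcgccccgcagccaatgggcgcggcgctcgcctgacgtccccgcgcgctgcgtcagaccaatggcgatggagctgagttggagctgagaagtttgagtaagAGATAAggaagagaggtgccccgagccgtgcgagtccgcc
Shox2 (chr3:66981722-66982021, minus strand): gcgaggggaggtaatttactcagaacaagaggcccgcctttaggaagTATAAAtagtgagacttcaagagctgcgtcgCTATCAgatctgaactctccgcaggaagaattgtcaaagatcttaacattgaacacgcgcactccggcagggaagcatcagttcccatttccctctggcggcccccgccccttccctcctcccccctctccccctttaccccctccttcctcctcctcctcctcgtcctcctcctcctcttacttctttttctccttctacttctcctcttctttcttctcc
Isl1 held GATA words at bases 136 and 261. Shox2 held TATAAA at base 48 and a GATA word on the other strand at base 79. TATAAA was found for 555 of the 6024 genes (9.21%), for 12 of the 107 higher by more than 1 (11.2%) and for 5 of the 29 lower by more than 1 (17.2%).

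Hcn4, the main pacemaker channel of the node, was not among the genes measured here. Of 11 genes of pacemaker channels and their regulators on the array, 8 passed the minimum. Of these, 5 were higher in SA and 1 lower, beside 31.1% and 22.8% of all genes, with a median difference of 0.57. Of the 8, 2 passed through SA arrays alone, and without a minimum 6 of 11 were higher and 1 lower with a median of 0.21. Cacna1h, the T-type calcium channel Cav3.2, had 2.48, 2.69, 2.79 and 2.62 in SA, against 0.42, 0.58 and 0.57 in LV and 0.54, 0.95, 0.56 and 0.21 in RV. It rose by 2.10 ± 0.11 (SE, adjusted p = 5.08e-08), with no overlap. Cacna1g, the T-type channel Cav3.1, had 0.58, 0.54, 0.61 and 0.39 in SA and lay below 0 in every ventricle array (-0.33 to -0.19), a rise of 0.80 ± 0.05. Cacna1h differed from RA by 0.17 (adjusted p = 0.36), whereas Cacna1g was higher than RA by 0.48 and than LA by 0.84, both past the threshold. Whether these 2 differences from RA differ from each other was not tested.

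Of the vagal arm, Kcnj3, the GIRK1 subunit of the acetylcholine-activated potassium channel, rose by 0.56 ± 0.06 (SE), and Rgs6, which speeds the shut-off of this signal, by 0.79 ± 0.05. Its relative Rgs4 differed by -0.41 ± 0.07. The G protein subunits Gnao1 and Gng2 were higher by 1.31 ± 0.05 and 1.73 ± 0.06. Of 7 genes of autonomic receptors and signalling past the minimum, of 10 on the array, 3 were higher and 2 lower. These counts stand beside 31.1% and 22.8% of all genes, and the median of 0.065 beside 0.04. The mean of the 10 was 0.61 in SA and 0.29 in the ventricles, but 0.70 in RA and 0.68 in LA. Gjd3, the low-conductance gap junction protein Cx30.2 of the mouse, rose by 0.58 ± 0.05. Gjc1, the node and atrioventricular connexin Cx45, differed by -0.14 ± 0.09 (adjusted p = 0.212) and Hcn2, a second pacemaker channel, by 0.15 ± 0.07 (adjusted p = 0.0977). Gjc1 passed as lower with quantile normalization (-0.23, adjusted p = 0.0416), with scaling by the median absolute deviation and with RV as the only ventricle, and Hcn2 passed as higher without LV replicate 1 (0.18, adjusted p = 0.0492). Hcn3, Cacna1d and Kcnj5 were below 0 in all 11 arrays, although Cacna1d, the L-type channel Cav1.3 of pacemaking, was higher in each SA array (-0.47 to -0.25) than in any ventricle array (-0.61 to -0.52).

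Of 12 genes of conduction and repolarisation in working muscle that passed the minimum, of 13 on the array, 5 were lower in SA and 3 higher, beside 22.8% and 31.1% of all genes, with a median of -0.02 beside 0.04 over all genes. Kcnip2, the subunit that brings the transient outward channel to the surface, had -0.34, -0.25, -0.28 and -0.29 in SA and 0.83 to 1.10 in the ventricles, a difference of -1.28 ± 0.06 (SE, adjusted p = 1.35e-08). Kcnd2, the pore of that channel, differed by -0.86 ± 0.07. Kcnj2, the inward rectifier that holds the resting potential of working muscle, had -0.37 to 0.05 in SA, 0.55 to 0.72 in RV and -0.07 to 0.32 in LV. It differed by -0.78 from RV (adjusted p = 9.1e-05) but by -0.24 from LV, which did not pass. Gja1, the main ventricular connexin, differed by -0.51 ± 0.10, with all SA arrays (3.11 to 3.42) below all ventricle arrays (3.48 to 3.99), and by -0.26 (adjusted p = 0.0475) after quantile normalization. Kcna5, a delayed rectifier subunit, differed by -0.29 ± 0.11 (adjusted p = 0.0343) and did not pass without SA replicate 2 (adjusted p = 0.106), SA replicate 3 (adjusted p = 0.0859), LV replicate 1 (adjusted p = 0.0658) or RV replicate 4 (adjusted p = 0.0538).

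The 3 that rose were Gja5, the connexin of atria and the fast conduction system, by 1.06 ± 0.08 (SE), and the delayed rectifiers Kcnh2 and Kcnq1, by 0.84 ± 0.10 and 0.35 ± 0.06. Gja5 was lower in SA than in RA by the value -0.75 and than in LA by -0.80, both past the threshold, so that SA lay between ventricles and atria. Scn4b, a sodium channel subunit, differed by 0.80 ± 0.47 (adjusted p = 0.169), with LV replicate 3 at -1.65, and by 0.29 (adjusted p = 0.00494) without that array.

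Of 12 calcium handling genes past the minimum, of 16 on the array, 8 were lower in SA and only Sln was higher, beside 22.8% lower and 31.1% higher over all genes, with a median difference of -0.34. Asph, the locus of junctin, differed by -0.92 ± 0.08 (SE), though the mean of all its probes gave -0.06 (adjusted p = 0.184). S100a1, a calcium sensor that activates the pump and the ryanodine receptor, differed by -0.70 ± 0.07, and Hrc, a calcium-binding protein of the reticulum lumen, by -0.59 ± 0.11. Ryr2, the release channel, differed by -0.24 ± 0.06. Atp2a2, the calcium pump itself, had 3.55, 4.52, 4.49 and 4.09 in SA and 4.29 to 4.83 in the ventricles (difference -0.33 ± 0.17, adjusted p = 0.113, and 0.01 with adjusted p = 0.916 after quantile normalization), and Slc8a1, the sodium-calcium exchanger, differed by -0.14 ± 0.07 (adjusted p = 0.116). Leaving out SA replicate 2 brought Atp2a2 past the threshold (-0.45, adjusted p = 0.0467), and leaving out LV replicate 1 did so for Slc8a1 (-0.18, adjusted p = 0.0272).

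Contractile and junctional genes shared by all heart muscle were lower or did not pass. Of 16 sarcomere genes past the minimum, 9 were lower and 0 higher at the adjusted threshold, with a median of -0.34. Without SA replicate 1, 8 were lower with a median of -0.21. Mybpc3, cardiac myosin binding protein C, differed by -0.74 ± 0.09 (SE) and Nrap, a protein of growing myofibrils, by -0.57 ± 0.07. These genes sit at the top of the arrays' range. After quantile normalization 7 were lower and 2 higher with a median of -0.11, and troponin C (Tnnc1) no longer passed (-0.10, adjusted p = 0.138). At the intercalated disc, 5 of 9 genes were lower, the most Cdh2, N-cadherin, by -0.85 ± 0.06 (-0.92 after quantile normalization). Quantile normalization moved the median of this list (-0.21) beyond the spread between arrays of a region. The sarcomere and disc counts stand beside 22.8% lower over all genes.

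Among the core cardiac transcription factors, 4 of 8 past the minimum were lower and 2 higher, beside 22.8% and 31.1% of all genes. With RV as the only ventricle 4 were lower and 0 higher. Nkx2-5, the homeobox factor of working muscle that Shox2 and Tbx3 oppose, had 0.65, 0.52, 0.64 and 0.55 in SA, 1.05, 1.10 and 0.96 in LV, and 1.10, 1.24, 1.06 and 1.04 in RV. It differed by -0.48 ± 0.05 (SE, adjusted p = 1.37e-05) with no overlap, and was lower than RA and LA too (-0.55 and -0.49, both past the threshold). Mef2a, Mef2c and Myocd, activators of muscle genes, differed by -0.49 ± 0.08, -0.29 ± 0.07 and -0.43 ± 0.09. Of the Hox genes, which mark position along the body, 4 of 38 passed the minimum, and the 3 of them that were higher passed through SA arrays alone. Without a minimum 9 of 38 were higher and 2 lower, with a median of -0.02. Over all 16593 genes without a minimum, 2684 were higher and 2308 lower, with a median of -0.03. Hoxa5 had 0.94, 0.65, 0.43 and 0.55 in SA and -0.53 to -0.23 in the ventricles, rose by 1.02 ± 0.09, and was higher than RA and LA by 1.10 and 1.12. Hoxb4 and Hoxb2 rose by 0.38 ± 0.07 and 0.23 ± 0.06.

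Transcripts of mitochondrial energy metabolism were mostly lower in SA than in the ventricles. Of 19 genes of fatty acid uptake and oxidation past the minimum, 18 were lower and 0 higher (median -0.60). Of 18 genes of the tricarboxylic acid cycle and pyruvate dehydrogenase, 16 were lower and 1 higher (median -0.41), of 32 genes of respiratory complex I, 28 and 0 (median -0.39), and of 35 of complexes III to V, 26 and 0 (median -0.42). These shares stood beside 22.8% lower over all genes. Eci1, an isomerase for unsaturated fatty acids, had 2.58, 2.67, 2.73 and 2.66 in SA, 3.51, 3.45 and 3.64 in LV, and 3.41, 3.48, 3.61 and 3.47 in RV, a difference of -0.85 ± 0.05 (SE, adjusted p = 1.69e-07). Etfdh, which passes electrons from fatty acid oxidation to the respiratory chain, differed by -0.79 ± 0.09, and Acadm and Hadhb, enzymes of the oxidation spiral, by -0.72 ± 0.09 and -0.72 ± 0.08. Idh2 and Cs, isocitrate dehydrogenase and citrate synthase, differed by -0.87 ± 0.09 and -0.74 ± 0.07, and Ndufs4, an accessory subunit of complex I, by -0.75 ± 0.08. In each of these genes all SA arrays lay below all ventricle arrays.

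How far the respiratory chain fell depended on the scale. After quantile normalization the lower calls were 21 of 32 for complex I (median -0.18) and 16 of 35, with 2 higher, for complexes III to V (median -0.11), while fatty acid oxidation kept a count of 18 of 19 (median -0.47) and the tricarboxylic acid cycle had 13 lower and 2 higher (median -0.27). With scaling by the median absolute deviation, where all genes had a median of -0.35, fatty acid oxidation had 19 of 19 lower, complex I 30 of 32 and complexes III to V 32 of 35. Beside the atria, the differences were smaller. Eci1 differed from RA by 0.15 and from LA by -0.01, Idh2 by 0.02 and -0.11, and Cs by -0.02 and -0.24, and of these values only that of Cs from LA passed.

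**Figure D3:**
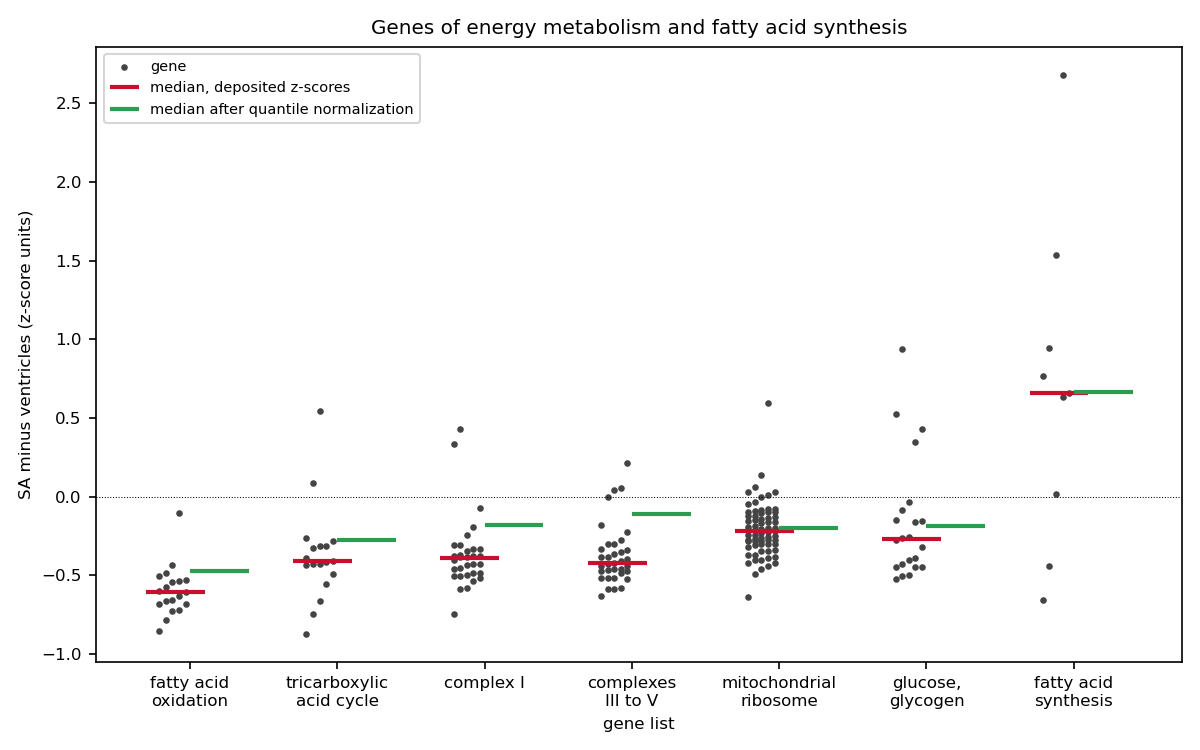
Difference of SA from the ventricles in z-score units for each tested gene of 6 lists of energy metabolism and 1 of fatty acid synthesis, with the median of each list on the deposited scale and after quantile normalization. The medians of fatty acid oxidation (-0.60 and -0.47) stay apart from 0 on both scales, while that of complexes III to V moves from -0.42 to -0.11, and fatty acid synthesis lies above 0.

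Of 69 mitochondrial ribosome genes 49 were lower and 1 higher, with a small median of -0.22. In glucose uptake, glycolysis and glycogen handling, 14 of 22 were lower and 4 higher (median -0.27), beside 22.8% and 31.1% of all genes. Quantile normalization moved this median, and that of the energy buffers, beyond the spread between arrays of a region. Hk2, the insulin-regulated hexokinase of muscle, differed by -0.52 ± 0.07 (SE), whereas Slc2a1, the general glucose transporter, rose by 0.53 ± 0.06 and Phkg1, the muscle catalytic subunit of phosphorylase kinase, by 0.94 ± 0.06. After quantile normalization these differences were -0.35, 0.50 and 0.91. Of the energy buffers, Ckm and Ckmt2, the muscle and mitochondrial creatine kinases, differed by -0.71 ± 0.07 and -0.65 ± 0.09. For these 2 genes quantile normalization gave -0.55 and -0.30. Mb, myoglobin, differed by -0.41 ± 0.13 (adjusted p = 0.0206) and by -0.04 (adjusted p = 0.361) after quantile normalization.

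Transcripts of fatty acid synthesis ran the other way. Of 9 genes past the minimum (2 of them through SA arrays alone), of 11 on the array, 6 were higher and 2 lower in SA, with a median of 0.66. Scd1, the desaturase that makes oleate, had 2.95, 3.33, 2.78 and 3.20 in SA, 0.19, 0.28 and 0.25 in LV, and 0.34, 0.90, 0.51 and 0.36 in RV, a rise of 2.68 ± 0.12 (SE, adjusted p = 1.07e-08). Acaca, the carboxylase that commits carbon to fatty acids, rose by 1.53 ± 0.06, Elovl6, an elongase, by 0.94 ± 0.10 and Scd2 by 0.77 ± 0.05. Gpam, which starts triglyceride assembly, differed by -0.66. Scd1 and Acaca were also higher in SA than in RA (1.79 and 1.06) and LA (1.78 and 1.19), all past the threshold.

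Markers of white fat rose with them. Of 8 white adipocyte genes past the minimum, of 11 on the array, 6 were higher and 0 lower. Of the 8, 4 passed through SA arrays alone, and without a minimum 6 of 11 were higher with a median of 0.50. Adipoq, the hormone adiponectin, had 2.31, 2.29, 1.79 and 2.20 in SA against -0.70 to -0.59 in LV and -0.70 to -0.17 in RV, a rise of 2.74 ± 0.12 (SE). Car3, carbonic anhydrase of adipocytes and slow muscle, rose by 2.77 ± 0.15, and Cidec, a lipid droplet protein, by 1.92 ± 0.09. The mean of all 11 markers was 0.84 to 1.10 in SA and -0.14 to 0.05 in the ventricles, and -0.04 to 0.20 in the atria. Retn, Fabp4 and Lipe were below 0 in all 11 arrays, and Pparg differed by -0.07. Ucp1, which lets brown fat make heat, had 0.49, 0.47, -0.59 and 1.05 in SA and -0.85 to -0.79 in the ventricles, so SA replicate 3 stood below the other SA arrays while still above every ventricle array. Of the 3 brown adipocyte genes tested it was the only one higher. Cox7a1 differed by -0.63 ± 0.13, and Cidea by 0.13 ± 0.09, which did not pass. Scd1 and Car3 belong to this marker list as well as to metabolism, and the part of fat tissue in the rise of Scd1 and Acaca was not tested.

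**Figure D4:**
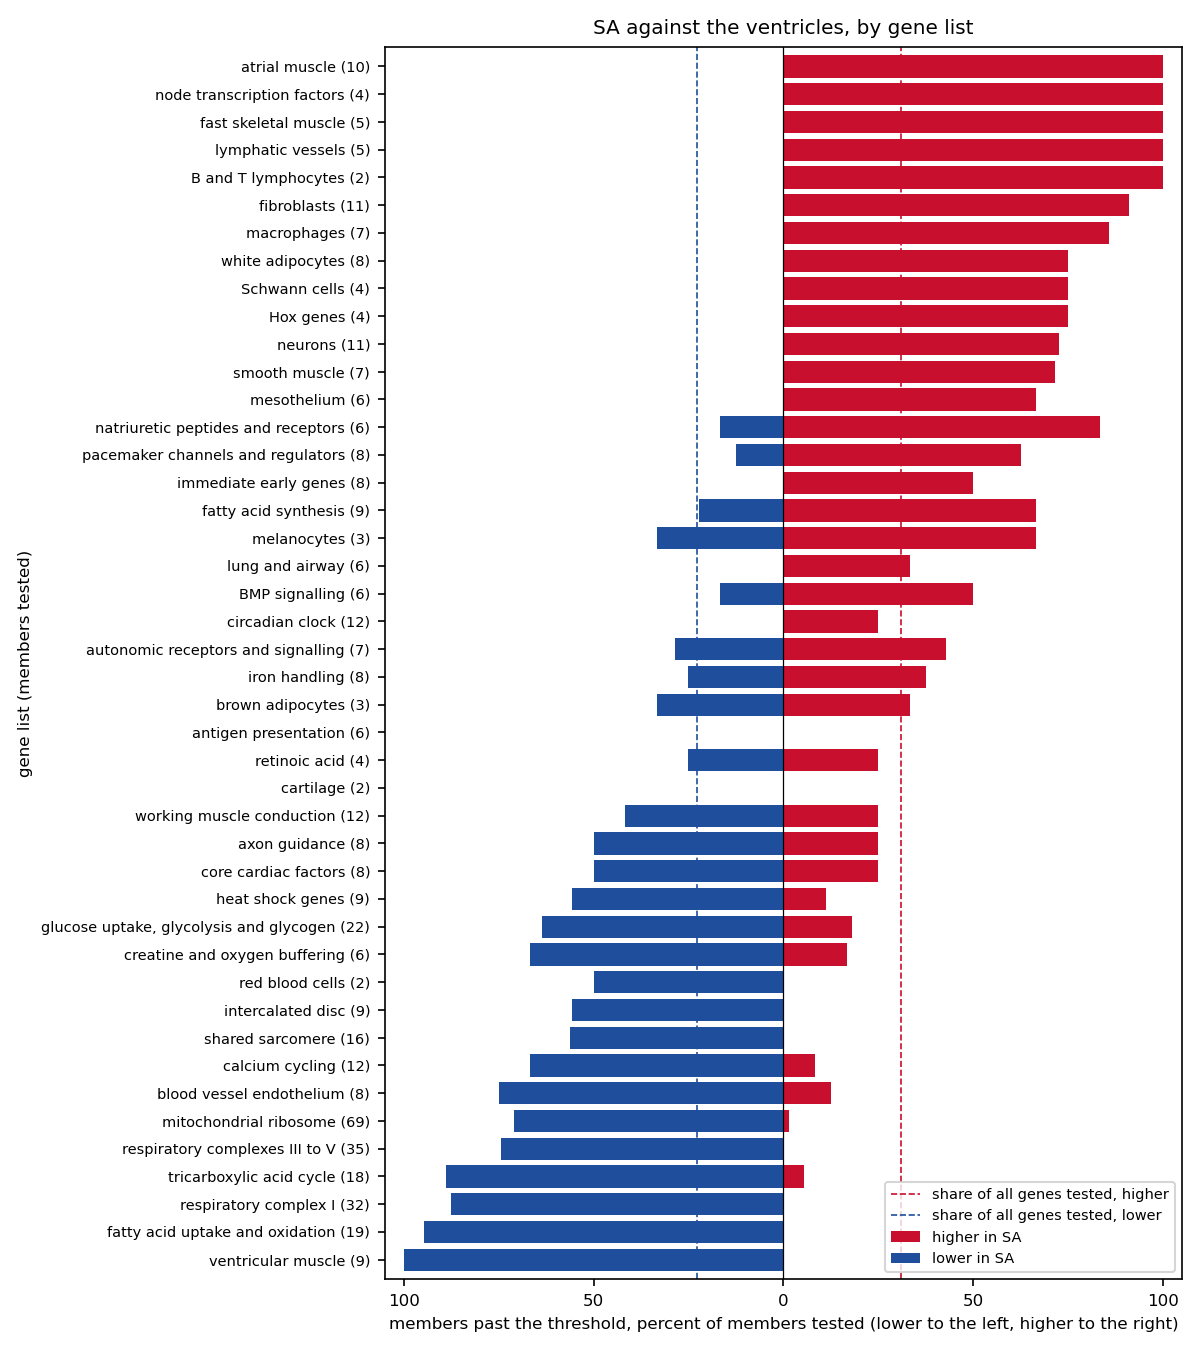
Percent of tested members of each gene list that were higher (right) or lower (left) in SA than in the ventricles, with the number tested in parentheses and dashed lines at the shares of all genes tested, 31.1% and 22.8%. Ventricular muscle and fatty acid oxidation lie at the lower end and atrial muscle and node transcription factors at the upper end.

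Markers of other tissues were mostly higher in SA than in the ventricles. The counts of these lists stand beside 31.1% higher and 22.8% lower over all genes tested. Of 11 fibroblast genes past the minimum, 10 were higher, with a median of 0.57, and Col1a1, the main fibrillar collagen, had 1.28, 1.18, 1.31 and 1.29 in SA and 0.15 to 0.59 in the ventricles, a rise of 0.84 ± 0.06 (SE). Eln, elastin, rose by 0.80 ± 0.09. With scaling by the median absolute deviation only 4 of the 11 fibroblast genes were higher. The mean of all fibroblast genes on the array was 1.65 in SA, 1.69 in RA and 1.61 in LA, so the atria had a like level. For smooth muscle genes it was 0.93, 0.34 and 0.29, and for lymphatic vessel genes 1.14, 0.72 and 1.07. Of 7 smooth muscle genes (2 through SA arrays alone), 5 were higher, led by Actg2, at 1.76 in SA replicate 2 and 0.73 to 0.89 in the other SA arrays, against -0.26 to 0.03 in the ventricles. All 5 lymphatic vessel genes past the minimum were higher, among them Reln by 0.74 ± 0.07, Lyve1 by 0.71 ± 0.17 and Pdpn by 0.61 ± 0.06. Of 8 blood vessel endothelium genes, 6 were lower and 1 higher. Cdh5, VE-cadherin, differed by -0.59 ± 0.04 with all SA arrays (0.19 to 0.27) below all ventricle arrays (0.59 to 1.04), and Flt1 by -0.44 ± 0.08. Vwf, von Willebrand factor of larger vessels and endocardium, rose by 0.86 ± 0.08.

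Nerve genes were higher in SA but unevenly. Of 11 neuron genes past the minimum, of 21 on the array, 8 were higher and 0 lower, with a median of 0.44. Of the 11, 6 passed through SA arrays alone, and without a minimum 9 of 21 were higher with a median of 0.23. Dbh, which makes noradrenaline, had 0.64, 0.52, 0.74 and 0.35 in SA and -0.33 to 0.01 in the ventricles, a rise of 0.77 ± 0.08 (SE). Npy, the cotransmitter of sympathetic nerves, read 0.94, 0.80, -0.50 and -0.39 in SA, so that 2 arrays were high, against -0.75 to -0.56 in the ventricles. The mean of the 21 genes was 0.08, -0.08, -0.40 and -0.45 in the 4 SA arrays and -0.52 to -0.47 in the ventricles. Without SA replicate 1, 4 of the 11 were higher with a median of 0.29, and without LV replicate 1 and RV replicates 2 and 3, 2 were. Of 9 lymphocyte genes 2 were tested, Cd79b, which had 0.94, 0.72, -0.35 and -0.29 in SA, and Cd79a, with 0.05, -0.15, -0.62 and -0.71. Th, Chat and Slc18a3 were below 0 in all 11 arrays. Mbp, myelin basic protein of Schwann cells, rose by 1.17 ± 0.09, with 0.73 to 1.26 in SA and -0.31 to 0.01 in the ventricles.

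Airway genes were highest in SA replicate 2. Of 11 on the array, 6 passed the minimum, each through SA arrays alone, and 2 were higher with a median of 1.15, whereas without SA replicate 2 the count was 5 of 6 with a median of 0.40. Scgb1a1, the secretoglobin of club cells in the airway, had -0.49, 3.97, 0.93 and 0.72 in SA, and Cyp2f2, a cytochrome of the same cells, 0.13, 2.91, -0.02 and -0.02. Both were at -0.49 or lower in every ventricle array and passed as higher. The mean of the 11 airway and lung genes was 1.12 in SA replicate 2 and -0.58 to -0.29 in the other SA arrays, against -0.68 to -0.56 in the ventricles, and the surfactant genes Sftpa1, Sftpb and Sftpc were below 0 in all 11 arrays. Without SA replicate 2 the rise was 1.05 for Scgb1a1 (adjusted p = 0.00407) and 0.72 for Cyp2f2 (adjusted p = 1.69e-06). Over all genes, 2174 were higher and 1489 lower without this array.

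Genes of fast skeletal muscle, and some of pigment cells, were higher in SA than in the ventricles. All 5 fast muscle genes past the minimum, of 10 on the array, were higher, of which 3 passed through SA arrays alone, and without a minimum 6 of 10 were higher with a median of 0.27. Myl1 had 3.60 to 4.49 in SA and 2.66 to 2.85 in the ventricles, Atp2a1, the calcium pump of fast muscle, rose by 1.56 ± 0.06 (SE), and Pvalb, parvalbumin, by 1.39 ± 0.07, while Myh1 and Myh4, the fast myosin heavy chains, were below 0. Against RA, Myl1 differed by 0.06 and Pvalb by -0.39. Of 3 pigment cell genes past the minimum, of 6 on the array, 2 were higher and 1 lower, beside 31.1% and 22.8% of all genes. The higher ones, Mlana and Dct of the melanocyte lineage, rose by 1.73 ± 0.06 and 1.46 ± 0.11. Both passed the minimum through SA arrays alone. Mlana was lower in SA than in RA (-1.38) and Dct higher (1.23), both past the threshold. Mitf, their master regulator, which muscle also expresses, differed by -0.59 ± 0.07, and Tyr, Tyrp1 and Pmel were below 0. Of 7 macrophage genes 6 were higher, beside 31.1% of all genes, among them Cd163 of resident macrophages by 0.71 ± 0.09. With scaling by the median absolute deviation 2 of the 7 were higher. The mean of all macrophage genes on the array was 0.75 in SA, 0.91 in RA and 0.73 in LA. Hba-a1, haemoglobin alpha, differed by -1.01 ± 0.14.

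**Figure D5:**
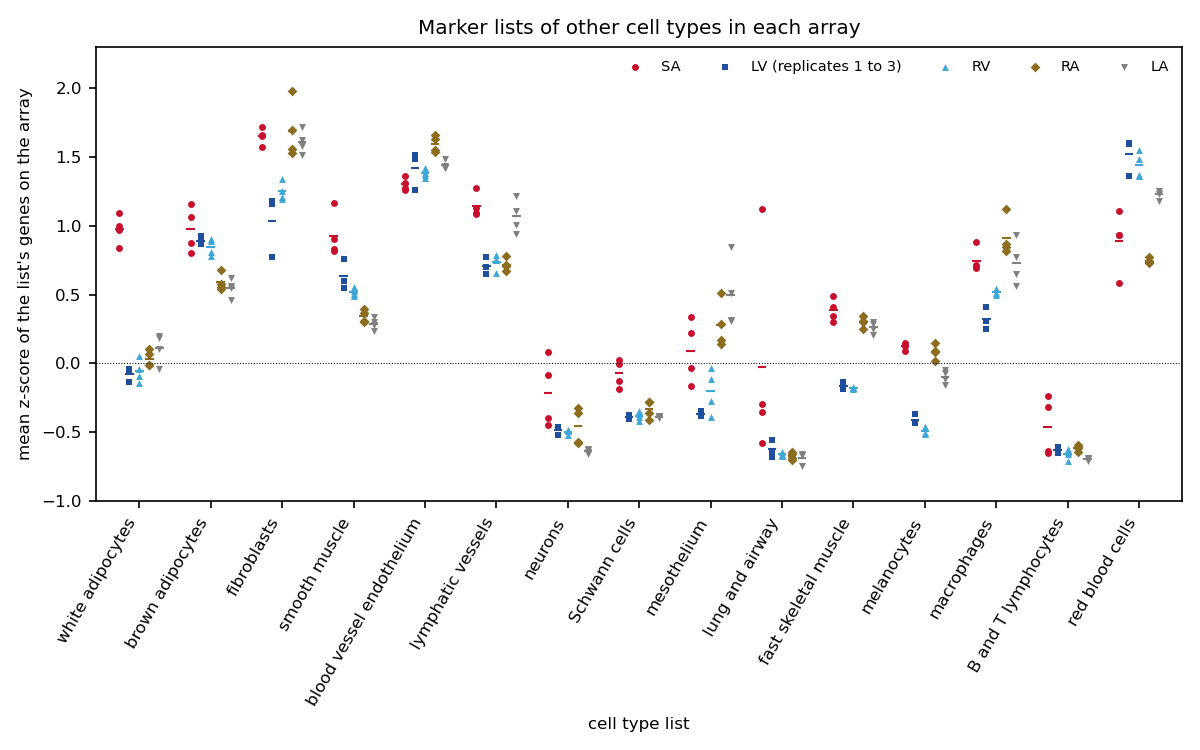
Mean z-score of the genes of 15 cell type lists in each of 19 arrays, 1 point per array, with a line at each region's mean. SA lies above all other regions in white adipocyte genes, a single SA array (replicate 2, at 1.12) stands apart in airway genes, and the SA arrays split into 2 higher and 2 lower in neuron genes.

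Hamp, the iron hormone hepcidin, had 2.97, 3.31, 3.10 and 2.88 in SA, -0.16, -0.68 and -0.54 in LV, and -0.55, -0.25, -0.28 and -0.66 in RV, a rise of 3.51 ± 0.12 (SE, adjusted p = 1.28e-09). It differed from RA by 0.31, which did not pass, and was higher than LA by 2.31. Slc40a1, the iron exporter ferroportin on which hepcidin acts, rose by 0.36 ± 0.07 and Trf, transferrin, by 0.65 ± 0.07. Of 8 iron handling genes past the minimum, of 10 on the array, these 3 were higher and 2 lower, beside 31.1% and 22.8% of all genes, with a median of -0.03. The lower ones were Hfe, which controls hepcidin, at -0.22 ± 0.05 and Fth1, ferritin heavy chain, at -0.40 ± 0.14 (adjusted p = 0.0291), which did not pass after quantile normalization or without SA replicate 1 (adjusted p = 0.0823), SA replicate 4 (adjusted p = 0.0693) or RV replicate 3 (adjusted p = 0.0517). Nppb, the precursor of B-type natriuretic peptide, differed between the ventricles. It had 1.35, 1.42, 1.99 and 1.62 in SA, 3.25, 3.61 and 3.39 in LV, and 1.13, 1.34, 1.64 and 1.96 in RV. SA differed from LV by -1.82 (adjusted p = 1.9e-05) and from RV by 0.08 (adjusted p = 0.75), and its values overlapped those of RV. Npr3, the clearance receptor of these peptides, rose by 0.67 ± 0.06.

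Several of the largest rises had no member in the lists. Cyp2e1, a cytochrome that oxidises ethanol, rose by 2.90 ± 0.17 (SE), Ppp1r1b, an inhibitor of protein phosphatase, by 2.58 ± 0.07, Hp, haptoglobin, by 2.49 ± 0.12 and Tmem45b by 2.44 ± 0.07. Tmem45b had 1.83, 1.94, 1.55 and 1.57 in SA and -0.77 to -0.61 in the ventricles, and was higher than RA by 2.27 and than LA by 2.15. Cyp2e1 and Hp were also higher than both atria (1.47 and 1.73, and 2.11 and 1.78), whereas Ppp1r1b was higher than RA by 0.81 and lower than LA, at -0.30. Gpx3, the secreted glutathione peroxidase, had 3.64 to 4.39 in SA and 2.06 to 2.53 in the ventricles apart from LV replicate 3 at -1.45. Without that array it rose by 1.82 (adjusted p = 2.54e-07) in place of 2.46.

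A few genes were chosen after their values were seen. A related pair moved in opposite directions. Fgf12 and Fgf13 encode fibroblast growth factor homologous factors, which stay inside the cell and bind sodium channels. Fgf12 rose by 2.41 ± 0.05 (SE, adjusted p = 4.26e-11) and Fgf13 differed by -1.12 ± 0.05 (adjusted p = 8.41e-09). Near them in size among the falls were Cacna2d1, a subunit of the L-type calcium channel (-1.14), Abcc9, the sulfonylurea receptor of cardiac ATP-sensitive potassium channels (-1.21), and Rpl3l, the muscle form of a ribosomal protein (-1.21). The promoters of Fgf13, Abcc9 and Rpl3l, and of Gm826, held a MEF2 motif, 4 of the 29 genes lower by more than 1 with an entry (13.8%), beside 104 of all 6024 (1.73%) and 3 of the 107 that were higher by more than 1 (2.8%). Fgf12 was among those 3, so both members of the pair held the motif. The promoters of Fgf13 and Abcc9 are printed to show the motif in its place.
Fgf13 (chrX:59585523-59585822, minus strand, 1 of its entries): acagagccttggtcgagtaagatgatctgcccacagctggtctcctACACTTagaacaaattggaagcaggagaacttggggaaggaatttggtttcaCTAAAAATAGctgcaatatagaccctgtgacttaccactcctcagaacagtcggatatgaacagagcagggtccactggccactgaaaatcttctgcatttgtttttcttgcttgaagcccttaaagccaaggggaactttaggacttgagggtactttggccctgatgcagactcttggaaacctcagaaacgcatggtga
Abcc9 (chr6:142702225-142702524, minus strand): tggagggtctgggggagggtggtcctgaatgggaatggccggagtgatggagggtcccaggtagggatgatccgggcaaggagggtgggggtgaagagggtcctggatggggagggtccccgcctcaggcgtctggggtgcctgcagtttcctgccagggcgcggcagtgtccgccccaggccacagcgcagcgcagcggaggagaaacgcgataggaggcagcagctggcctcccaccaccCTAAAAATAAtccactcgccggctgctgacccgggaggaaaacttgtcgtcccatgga
The MEF2 motif began at base 99 in Fgf13 and at base 243 in Abcc9, and the capitals at base 47 of Fgf13 are an NKX2-5 word on the other strand. Fgf13 and Rpl3l had several entries, which gives more chances of a match. No relation between the motif and the fall was tested.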

How the data were processed

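RNA was hybridised to bead arrays and read by the authors with Illumina's BeadStudio and GenomeStudio 2011.1, per the labels. The deposited values were score values, z-scores within each array with 2 decimals. How they were made from the intensities is not given in the sources used here, nor is array background, so precision rests on the number of arrays. Probes were named through the platform's gene identifiers. Of 25697 probes, 23978 carried 1 gene. Differences were tested two-sided with limma 3.58.1 in R 4.3.3, with a mean for each of SA, LV and RV, empirical Bayes moderation and Benjamini-Hochberg adjustment over all 7409 genes. Values against RA and LA came from a fit over 19 arrays. The fit was checked on simulated data. Named genes were the 14 largest rises and falls without overlap, members of the node, pacemaker, atrial, ventricular, calcium and conduction lists, up to 4 genes of each other list, and markers. The comparison, its members and the lists were chosen with earlier results of these data known. No protein sequence is shown.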

Additional observations from a re-analysis of the deposited data

Results flagged for a closer look

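In 22 of 382 groups of 4 arrays (5.76%) the gap between a single array and the other 3 took up most of the range, where chance gives about 1 in 20. The rule is relative to the range, so very small gaps were flagged too, such as Ptgds at -0.05 beside -0.11. The single arrays were SA replicates 1, 2 and 4 and RV replicates 1, 2 and 3.

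In SA replicate 1, Dkk3 was 3.18 (others 3.52 to 3.54), Shox2 1.22 (1.39 to 1.42), Jph2 -0.41 (-0.17 to -0.13), Cd163 1.81 (1.51 to 1.55) and Slit2 -0.21 (-0.32 to -0.31). In SA replicate 2, Actg2 was 1.76 (0.73 to 0.89), Cyp2f2 2.91 (-0.02 to 0.13) and Mrps18a 1.51 (1.65 to 1.67). In SA replicate 4, Ptgds was -0.05 (-0.11 in each of the others), Gjd3 -0.14 (0.04 to 0.07) and Tie1 0.47 (0.30 to 0.31).

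In RV replicate 1, Isl1 was -0.67 (others -0.76 to -0.75), Pvalb -0.67 (-0.61 to -0.60) and Fos 0.44 (-0.40 to -0.34). In RV replicate 2, Irx5 was 1.06 (0.53 to 0.61), Nppa 3.61 (3.12 to 3.18) and Irx4 0.53 (0.34 to 0.37). In RV replicate 3, Myl3 was 4.62 (4.27 to 4.32), Atp2a2 4.62 (4.29 to 4.34), Cdh5 0.73 (0.59 to 0.61), Bag3 3.76 (3.51 to 3.53) and Ogdh 3.06 (2.90 to 2.92). The largest gap was that of Cyp2f2, a gene of airway cells.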

How the results depend on the processing

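Leaving out LV replicate 4 moved the count of genes past the threshold the most. With it kept, 422 genes passed against the ventricles (392 higher, 30 lower), 404 against LV (386 and 18) and 242 against RV (217 and 25), and a fit over all 20 arrays gave 899 (812 and 87), 1211 (1096 and 115) and 492 (424 and 68), 144 against RA and 147 against LA. Under both, Myom1 (0.0112), Casq2 (0.0675), Mef2c (0.0075), Bmpr1a (0.0337), Pkp2 (0.0725) and Vcl (0.06) changed sign and none of them passed. Median and median absolute deviation scaling gave 1012 higher and 2715 lower against the ventricles, 866 and 2448 against LV, and 824 higher against RV, with 478 genes higher and 1448 lower by more than 1, and turned Tef to -0.0773 and Corin to -0.52. With RV alone Nppb was 0.0775. Without LV replicate 1 and RV replicates 2 and 3, a choice made after seeing the data, 969 genes were lower than in RV. The cause was not tested.

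Leaving out 1 array gave 3612 to 3974 genes against the ventricles (2014 to 2279 higher, 1489 to 1695 lower), 3149 to 3462 against LV and 3003 to 3758 against RV. Quantile normalization gave 4121 genes, of which 3507 were called before, and no minimum on the level 4992 of 16593. Deviations of LV and RV arrays of the same number correlated at 0.21, 0.18 and 0.015. LV replicate 1 with RV replicate 2 gave -0.16, and LV replicate 2 with RV replicate 1 gave -0.17. RV replicate 3 gave values of larger size with SA arrays, 0.31 with SA replicate 3 and -0.37 with SA replicate 1, although SA was dissected apart. These correlations therefore cannot tell whether LV and RV samples were paired. Such pairing is possible, and the main fit did not model it. A replicate block by the source number gave 3931 genes, and the title number as a random block, with correlation 0.228, gave 3858. Scale and background of the arrays are unknown, so levels near 0 are the least certain.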
